A study of Caenorhabditis elegans with 18 samples.

Results

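The heat shock response in hsf-1(sy441);rmSi1[hsf-1::gfp] larvae of Caenorhabditis elegans was measured in 6 of the 18 libraries of the series, 3 at 34 °C and 3 at 20 °C. Per the labels, this strain is AM1062, called the transgene strain here. Both of its groups carried the mutation hsf-1(sy441) on chromosome I, the hsf-1::gfp transgene rmSi1 on chromosome II and the mutation unc-119(ed9) on chromosome III. Hatchlings synchronised with hypochlorite were grown on OP50 bacteria at 20 °C to the middle of the second larval stage. Plates of the 34 °C group were then held in a water bath for 30 min, and whole larvae of both groups were collected. Polyadenylated RNA was sequenced. The labels do not name the promoter of the transgene or the number of lines made. Separate cultures are not stated for the replicate libraries, so p-values measure the spread between libraries, which may be technical. For comparison, the same pair of temperatures was measured in N2, the wild type, and in hsf-1(sy441) without a transgene, with 3 libraries per group.

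HSF-1 is the heat shock transcription factor of the worm. In heat it assembles into trimers, binds heat shock elements in DNA and raises transcription of chaperone genes, whose products hold or refold damaged proteins. The small HSP-16 proteins and inducible HSP70 proteins are near silent in unstressed animals, whereas HSP-90 and the constitutive HSP70 protein HSP-1 serve protein folding at all temperatures. The sy441 allele is known as a premature stop that removes part of the activation domain.

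Levels are given in CPM (counts per 1 M fragments), with library sizes scaled by the TMM method. Gene positions are in ce10, and several genes share a locus in which the authors' tool merged neighbours, so their values are uncertain where reads could belong to either. The transgene libraries held 16.09 to 27.23 M fragments. Replicate 3 stood apart from replicates 1 and 2 at both temperatures in moulting and cuticle genes. The collagen dpy-13 had 910, 1001 and 212 CPM at 34 °C and 1009, 731 and 192 CPM at 20 °C in replicates 1, 2 and 3. The moulting gene mlt-10 had 266, 658 and 52.7 CPM at 34 °C and 306, 308 and 72.5 CPM at 20 °C. Replicate 3 was thus the lowest of each group in both genes. Markers of neurons, body wall muscle, intestine, hypodermis, pharynx and germline were all detected, and the adult yolk proteins summed to 2.97 to 3.12 CPM at 34 °C and 1.65 to 3.06 CPM at 20 °C.

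The labels were checked on both genes that the genotype names. hsf-1 had 97.6, 101 and 112.1 CPM at 34 °C and 103.8, 106 and 115 CPM at 20 °C, and the groups overlapped (log2 fold change −0.07, adjusted p = 0.643). With library totals in place of TMM this gene was called lower at 34 °C, at −0.34. In N2 it averaged 33.6 CPM at 34 °C and 39.5 CPM at 20 °C, and in hsf-1(sy441) 91.9 CPM at 34 °C and 97.98 CPM at 20 °C. Fragments of the transgene and of the mutant gene cannot be told apart in these counts. unc-119, which the ed9 mutation disrupts, averaged 2.27 ± 0.17 CPM at 34 °C and 2.96 ± 0.41 CPM at 20 °C in the transgene strain, against 12.4 CPM at 34 °C and 18.1 CPM at 20 °C in N2. Its difference in heat lay at the threshold (−0.38, adjusted p = 0.0488) and lost the call in 13 of 17 alternatives. Among these were the fits without replicate 1 or 2 at 34 °C or without replicate 1 or 3 at 20 °C (−0.25 to −0.38). With replicate numbers as a block unc-119 was not called either (−0.37, adjusted p = 0.0531). The same held in DESeq2 (adjusted p = 0.144), in limma-voom (adjusted p = 0.182) and with the 6 transgene libraries alone (adjusted p = 0.227).

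After 30 min at 34 °C, 2272 of 14219 genes tested were called higher (16%) and 2582 were called lower (18.2%), at an adjusted p below 0.05 in edgeR's quasi-likelihood test. All adjusted p-values of single genes come from this test unless another tool is named. Of these, 584 were at least 2-fold higher (4.11%) and 1053 were at least 2-fold lower (7.41%). Over all genes tested, the log2 fold changes had a median of 0.02. The scale of the libraries bore on the smaller changes. Ribosomal protein and chaperone transcripts filled a larger share of the libraries at 34 °C, and with library totals in place of TMM the median moved by −0.28. Genes called higher then numbered 807 (5.68%), all among the 2272, and genes called lower numbered 4440 (31.2%). For 189 of the genes called higher on the TMM scale the fold change was below 0 on library totals. Counts of the groups below are given on both scales where this matters. With replicate numbers as a block, 3155 genes were called higher (22.2%) and 3396 lower (23.9%).

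**Figure D1:**
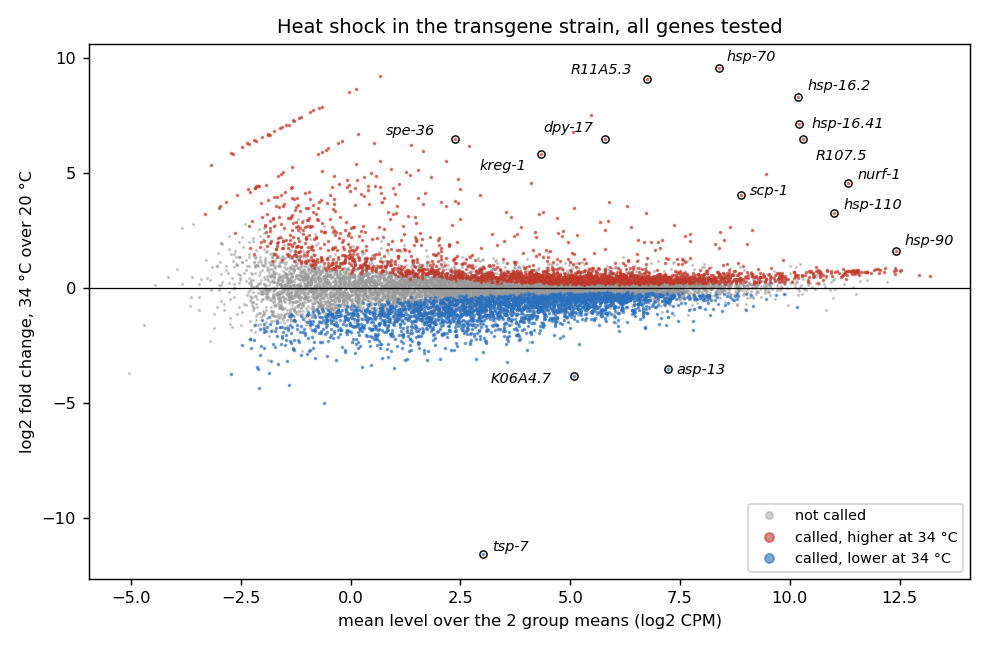
Each point is a gene, with the mean level of both groups on the horizontal axis (log2 CPM) and the log2 fold change of 34 °C over 20 °C in the transgene strain on the vertical axis. Red genes were called higher, blue genes lower and grey genes were not called, and named genes are circled. The tetraspanin tsp-7 at the bottom had no fragment at 34 °C, so its fitted value is no bound.

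Inducible heat shock proteins were among the largest rises. With all libraries hsp-70 rose most of the called genes that reached 10 CPM without overlap of groups. R11A5.3 (9.07) rose more than hsp-16.2 (8.30) and hsp-16.41 (7.13). hsp-70 (C12C8.1, chromosome I, 9317728 to 9327204), an inducible cytosolic HSP70, had 659, 617 and 745 CPM at 34 °C, against 0.685, 0.686 and 1.28 CPM at 20 °C. All 3 heated libraries lay far above all 3 unheated ones. The log2 fold change was 9.56 ± 0.30 (SE; adjusted p = 2.67e-11), a 755-fold rise, and per length the gene averaged 340 ± 41.4 FPKM at 34 °C and 0.428 FPKM at 20 °C (SD, n = 3).

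hsp-16.2 and hsp-16.41 encode small heat shock proteins that bind unfolding proteins, and they lie together in a merged locus of 4 genes (chromosome V, 1799725 to 1809467). hsp-16.2 had 2142, 2143 and 2699 CPM at 34 °C, against 0.527, 0.643 and 20.9 CPM at 20 °C. hsp-16.41 had 2207, 2130 and 2702 CPM at 34 °C, against 0.264, 0.343 and 49.5 CPM at 20 °C. Groups did not overlap in either gene, but replicate 3 at 20 °C stood far above the other unheated libraries in both.

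That library held 1081 fragments of hsp-16.41 and 458 of hsp-16.2, whereas replicates 1 and 2 at 20 °C held 5 and 8 of hsp-16.41 and 10 and 15 of hsp-16.2. The heated libraries held 37313 to 47814 fragments of hsp-16.41 and 37268 to 48098 of hsp-16.2. It also held more fragments of hsp-70, 28 against 13 and 16 in replicates 1 and 2, and without it the log2 fold change of hsp-70 was 9.96. Fragments of R11A5.3 numbered 10 there, against 8 and 7, and hsp-110 had 383 CPM, against 386 and 398 CPM. The ratio of hsp-16.41 to hsp-16.2 fragments was 1.03, 0.994 and 1.00 in the heated libraries. In the unheated ones it was 0.5, 0.533 and 2.36, the last in replicate 3. Where these fragments came from was not tested.

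With all libraries, the log2 fold change was 8.30 ± 1.21 for hsp-16.2 (SE; adjusted p = 0.000135) and 7.13 ± 1.43 for hsp-16.41 (adjusted p = 0.00157). Without replicate 3 at 20 °C it was 11.97 for hsp-16.2 (adjusted p = 1.56e-07) and 12.91 for hsp-16.41 (adjusted p = 1.52e-08). Leaving out replicate 3 at both temperatures gave 11.81 and 12.76 for these genes. Both rises were called in every case. When the 6 transgene libraries alone were fitted, hsp-16.41 lost its call with replicate 3 in the fit (adjusted p = 0.0582).

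The count of calls over all genes without that library was 2167 higher (15%) and 2126 lower (14.7%), of which 1967 and 2081 were shared with the calls from all libraries. No called gene changed direction. Without replicate 3 at both temperatures, 1800 genes were called higher (12.5%) and 2282 lower (15.8%).

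Of the 9 inducible heat shock proteins listed, 4 passed the filter on low counts and had usable estimates, and all 4 were called higher, with a median log2 fold change of 7.77. DESeq2 called 2 of the 4 and gave no p for hsp-16.2 and hsp-16.41, and with the 6 transgene libraries alone 3 were called. Without replicate 3 at 20 °C the median was 10.97. hsp-16.48, the fourth, had 17, 13 and 15 fragments at 34 °C and none in any library at 20 °C, or at least 16.7-fold higher when the empty group is set to a floor of 3 fragments in all. hsp-16.1 and hsp-16.49 showed the same pattern at low depth. hsp-16.1 had 12, 19 and 15 fragments at 34 °C and none at 20 °C, at least 17.1-fold higher. hsp-16.49 had 5, 6 and 7 at 34 °C and none at 20 °C. These genes have near-identical copies on chromosome V, so their own counts are uncertain. The small heat shock gene hsp-16.11 and a pair of HSP70 genes, F44E5.4 with F44E5.5, carried the tool's mark for too many fragments in all 3 heated libraries and are listed there at 0, so no fold change can be given. At 20 °C, F44E5.4 had 5, 2 and 5 fragments.

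**Figure D2:**
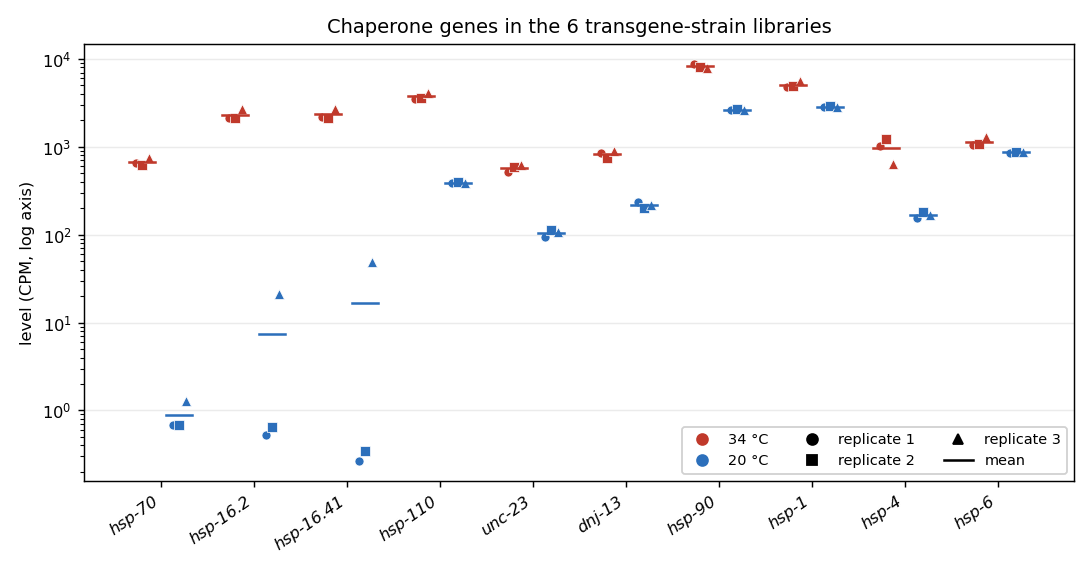
Level of 10 chaperone genes in the 6 transgene libraries, in CPM on a log axis, with 34 °C in red on the left and 20 °C in blue on the right of each gene. Circles, squares and triangles are replicates 1, 2 and 3 and the line is the group mean. The unheated triangles of hsp-16.2 (20.9 CPM) and hsp-16.41 (49.5 CPM) stand above the other unheated points, which those of hsp-110 and hsp-90 do not.

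The 12 largest rises among called genes that reached 10 CPM included 9 genes outside the classical chaperones. R11A5.3 (chromosome I, 7862837 to 7863548) had 214, 247 and 180 CPM at 34 °C, against 0.422, 0.300 and 0.458 CPM at 20 °C (9.07 ± 0.36, SE; adjusted p = 5.9e-10). R107.5 (chromosome III, 9051514 to 9053708) had 2449, 2486 and 2549 CPM at 34 °C, against 26.2, 29.8 and 26.7 CPM at 20 °C (6.50 ± 0.18, SE; adjusted p = 6.24e-12). Heated libraries of R107.5 differed from one another by little and lay far above the unheated ones. ZC21.10 had 92.3, 82.5 and 91.8 CPM at 34 °C, against 0.369, 0.557 and 0.503 CPM at 20 °C, a log2 fold change of 7.51. C25F9.2, at 6.81, reached 50.02 to 74.2 CPM at 34 °C and stayed at 0.412 to 0.843 CPM at 20 °C. The others were kreg-1 (5.85), the F-box gene fbxb-72 (6.17), spe-36 (6.50), in a merged locus of 3 genes, and Y43F8B.2 (4.97), in a merged locus of 4 genes. The collagen dpy-17 (6.47) is described with the cuticle genes.

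Other rises of abundant transcripts were picked after their values were seen. nurf-1, a subunit of the chromatin remodelling complex NURF, had 5364, 5169 and 4265 CPM at 34 °C, against 217, 197 and 198 CPM at 20 °C (4.6 ± 0.16, SE; adjusted p = 9.29e-11). Per length it averaged 3260 ± 286 FPKM at 34 °C and 61.9 ± 1.2 FPKM at 20 °C (SD, n = 3). scp-1, whose product resembles the vertebrate sterol sensor SCAP, had 876, 839 and 971 CPM at 34 °C, against 52.3, 56.4 and 54.8 CPM at 20 °C (4.04 ± 0.08, SE; adjusted p = 3.59e-13). In both genes the 3 heated libraries lay above all unheated ones by many times the spread within a group.

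In the constitutive folding machinery of the cytosol the HSP70 and HSP90 genes themselves and a few partners rose. Of 16 members of the HSP70 and HSP90 machinery, 6 were called higher and 1 lower (median 0.22), against 16% and 18.2% of all genes. On library totals 5 were higher and 4 lower (median −0.06), against 5.68% and 31.2%. hsp-110, the nucleotide exchange factor of HSP70, had 3486, 3625 and 4129 CPM at 34 °C, against 386, 398 and 383 CPM at 20 °C (3.27 ± 0.08, SE; adjusted p = 2.26e-12). unc-23, a BAG-domain partner of HSP70, had 512, 587 and 630 CPM at 34 °C, against 94.98, 113 and 107.4 CPM at 20 °C, a log2 fold change of 2.45. Both genes rose in all 3 heated libraries, with no overlap.

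hsp-90 had the highest counts of these, with 8801, 8023 and 7860 CPM at 34 °C, against 2641, 2685 and 2608 CPM at 20 °C (1.64 ± 0.06, SE; adjusted p = 4.68e-10). hsp-1, the constitutive HSP70, had 4771, 4940 and 5607 CPM at 34 °C, against 2820, 2912 and 2820 CPM at 20 °C, a rise of 0.84. Neither gene's groups overlapped. Of the HSP90 co-chaperones, ahsa-1 (0.67), which stimulates its ATPase, and the immunophilin fkb-6 (0.45) rose and the phosphatase pph-5 (−0.26) fell, whereas sti-1 (0.11), cdc-37 (0.17) and daf-41 (0.26) did not pass the test. The 16 genes together made up 1.69%, 1.601% and 1.74% of the fragments at 34 °C, and 0.784%, 0.798% and 0.855% at 20 °C.

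J-domain proteins deliver substrates to HSP70. Of 29 measured, 6 were called higher and 6 lower, with a median of 0.10; these shares, 20.7% each way, lie near those of all genes (16% and 18.2%). On library totals 1 was higher and 10 were lower, beside 5.68% and 31.2% of all genes. Of the list, dnj-13, the worm relative of human DNAJB1, rose most, with 841, 737 and 889 CPM at 34 °C, against 238, 202 and 219 CPM at 20 °C (1.91 ± 0.12, SE; adjusted p = 5.26e-08). dnj-11 fell, with 82.7, 75.3 and 73.8 CPM at 34 °C, against 182, 188 and 200 CPM at 20 °C (−1.30, adjusted p = 1.94e-08). The next largest fall was that of dnj-22, at −1.01. In all 3 genes the groups were apart.

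Of 11 other small heat shock proteins measured, 2 were called higher (18.2%) and none lower, against 16% and 18.2% of all genes. hsp-12.6 averaged 2.13 CPM at 34 °C and 0.0776 CPM at 20 °C (4.7), and hsp-12.3 averaged 2.02 CPM at 34 °C and 0.352 CPM at 20 °C (2.49). With replicate numbers as a block 5 were called higher and none lower, against 22.2% and 23.9% of all genes. hsp-12.2 (0.04), hsp-17 (0.14), hsp-43 (0.18) and hsp-25 (0.37) did not pass the test, and the median of the 11 was 0.37.

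In the endoplasmic reticulum 1 chaperone gene rose. On the TMM scale the share of genes called lower (20%) was near that of all genes (18.2%). hsp-4, an HSP70 of this compartment that is the usual reporter of its unfolded protein response, had 1019, 1238 and 645 CPM at 34 °C, against 156, 182 and 167 CPM at 20 °C (2.52 ± 0.21, SE; adjusted p = 6.6e-07). Heated libraries varied among themselves but all lay above the unheated ones. hsp-3, the second HSP70 of this compartment, averaged 2056 CPM at 34 °C and 2102 CPM at 20 °C and did not pass the test (−0.03), nor did xbp-1 (0.20) or the chaperone enpl-1 (−0.03). The stress sensors ire-1 (−0.56, adjusted p = 4.04e-05) and atf-6 (−0.60, adjusted p = 0.0286) fell, as did the ubiquitin ligase sel-11 (−0.47) and calnexin, cnx-1 (−0.30). atf-6 lost its call without replicate 1 or 2 at 34 °C, or without replicate 2 or 3 at 20 °C, at values of −0.51 to −0.59. Over the 20 genes measured, 1 was called higher (5%) and 4 lower (20%), against 16% and 18.2% of all genes, with a median of −0.06. With replicate numbers as a block the counts were 2 higher and 7 lower, against 22.2% and 23.9%. On library totals they were 1 higher and 11 lower, against 5.68% and 31.2%.

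The chaperonin CCT folds actin and tubulin, and prefoldin hands substrates to it. Of 13 measured members of these complexes 8 were called higher and none lower, against 16% and 18.2% of all genes. The median was 0.28, with pfd-5 (0.50) and cct-2 (0.44) foremost. On library totals 1 was higher and 1 lower, against 5.68% and 31.2% of all genes, and the median was −0.0007. Of 13 mitochondrial chaperone and stress genes, 3 were called higher (23.1%) and 1 lower (7.69%), against 16% and 18.2% of all genes. The mitochondrial HSP70 hsp-6 had 1046, 1068 and 1287 CPM at 34 °C, against 855, 867 and 869 CPM at 20 °C (0.39, adjusted p = 0.00522), and lost its call on library totals (0.12) and without replicate 3 at both temperatures (0.30). hsp-60 (0.15) did not pass the test. On library totals none of these 13 was called higher and 4 were called lower, against 5.68% and 31.2% of all genes. Without replicate 3 at both temperatures none was called.

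**Figure D3:**
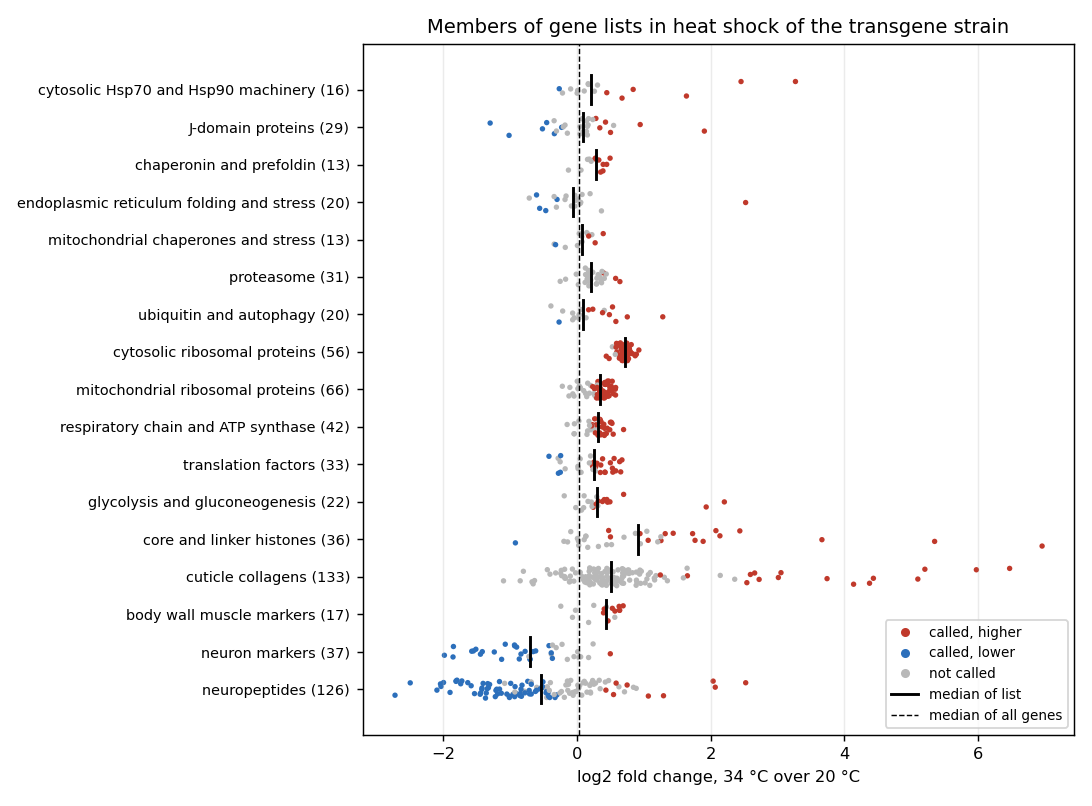
Log2 fold change of 34 °C over 20 °C for the tested members of 17 gene lists in the transgene strain, with the number tested in parentheses. Each point is a gene, the black tick is the median of the list and the dashed line is the median of all genes (0.02). Ribosomal proteins lie above the line almost without exception (median 0.72) and neuron markers mostly below it (median −0.70).

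Of 12 measured genes known to regulate or act with HSF-1, 2 were called higher and none lower, a share of rises (16.7%) at that of all genes (16%). daf-16, the insulin-pathway FOXO factor that acts with HSF-1 on small heat shock genes, averaged 290 ± 49.98 CPM at 34 °C and 190 ± 3.7 CPM at 20 °C (SD, n = 3; log2 fold change 0.61). ddl-2 (0.63), one of the genes known to restrain HSF-1, also rose, whereas hsb-1 (0.05), ddl-1 (−0.06) and hsf-1 itself did not pass the test. On library totals none of the 12 was called higher and 4 were called lower, hsf-1 (−0.34) among them, against 5.68% and 31.2% of all genes.

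Of 20 ubiquitin and autophagy genes 8 were called higher and 1 lower, against 16% and 18.2% of all genes, and on library totals 2 and 5, against 5.68% and 31.2%. sqst-1, the autophagy receptor p62, had 177, 222 and 241 CPM at 34 °C, against 75.0, 90.5 and 97.1 CPM at 20 °C (1.28 ± 0.16, SE; adjusted p = 2.39e-05). ubq-2, a fusion of ubiquitin to a ribosomal protein, rose by 0.75. The groups of both genes were apart. Of 31 proteasome subunits 3 were called higher and none lower, with a median of 0.21, and this share of rises (9.68%) is below the 16% of all genes. With replicate numbers as a block 15 were called higher, against 22.2% of all genes, and on library totals 1 was higher and 1 lower.

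Ribosomal protein transcripts rose as a group. Of 62 listed, 56 were tested, and 54 of these were called higher and none lower, against 16% and 18.2% of all genes. The median log2 fold change was 0.72. In 54 of the 56 the groups did not overlap, against 43.7% of all genes tested. On library totals 49 were called higher and none lower (median 0.44), against 5.68% and 31.2% of all genes. Without replicate 3 at both temperatures 47 were called higher, against 12.5% of all genes. rpl-30, of the large subunit, had 1993, 2256 and 1866 CPM at 34 °C, against 1121, 1177 and 921 CPM at 20 °C (0.93, adjusted p = 1.12e-05). rps-7, of the small subunit, had 6874, 7782 and 6389 CPM at 34 °C, against 3699, 4067 and 3597 CPM at 20 °C (0.89, adjusted p = 1.95e-06). All heated libraries of both genes lay above all unheated ones. Ribosomal protein genes took 17.04%, 15.9% and 16.7% of the fragments at 34 °C, and 12.7%, 12.02% and 12.12% at 20 °C.

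Other parts of translation and the mitochondria showed smaller rises that depended on the scaling. Of all genes 16% were called higher and 18.2% lower, and on library totals 5.68% and 31.2%. Of 33 translation factors 17 were called higher and 4 lower (median 0.26), and on library totals 6 and 10 (median −0.02). The elongation factors eef-2 (0.54) and eef-1G (0.64) rose, while ifg-1 (−0.25), the eIF4G scaffold, and eif-2A (−0.42) fell. eef-2 had 10474, 11561 and 11364 CPM at 34 °C, against 7838, 8424 and 6764 CPM at 20 °C. Of 66 mitochondrial ribosomal proteins 46 were called higher and none lower (median 0.35), and on library totals 5 and 8 (median 0.07). Of 42 respiratory chain and ATP synthase genes 26 were called higher and none lower (median 0.31), and on library totals 6 and 4 (median 0.03). The complex I subunit nuo-1 rose by 0.54. The signs of the medians for translation factors thus differed between the scales, and most rises in these 3 lists were called on the TMM scale alone.

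Of 45 splicing factors 9 were called higher (20%) and 4 lower (8.89%), against 16% and 18.2% of all genes, and on library totals none higher and 12 lower, against 5.68% and 31.2%. mog-3 (−1.09) and prp-8 (−0.47) fell. Ribosome biogenesis genes were called higher in 3 of 22 cases and lower in none, and on library totals higher in none and lower in 9. DNA replication and cell cycle genes were called higher in 1 and lower in 2 of 32 cases. With replicate numbers as a block they were called in 5 and 4, against 22.2% and 23.9% of all genes.

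Some histone transcripts with poly(A) tails rose. Of 79 histone genes 36 passed the filter, and 16 of these were called higher and 1 lower, against 16% and 18.2% of all genes. his-41 had 504, 579 and 458 CPM at 34 °C, against 145, 168 and 140 CPM at 20 °C (1.77 ± 0.12, SE; adjusted p = 1.21e-07), his-35 rose by 1.07 and the linker histone hil-5 by 0.94, whereas the linker histone hil-2 fell (−0.92). Heated and unheated libraries of his-41 did not overlap. Core histone genes have near-identical copies, so the assignment of fragments to single genes is uncertain.

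Of 178 cuticle collagen genes 133 were tested, and 16 were called higher and none lower. On the TMM scale the share of rises (12%) is below the 16% of all genes, of which 18.2% were called lower. The median of the list was 0.50, beside 0.02 for all genes. On library totals 13 were called higher and none lower, against 5.68% and 31.2% of all genes. Single collagens that were near silent at 20 °C rose steeply. dpy-17 (chromosome III, 5107289 to 5108550) had 139, 87.7 and 103 CPM at 34 °C, against 1.48, 1.37 and 0.869 CPM at 20 °C (6.47 ± 0.34, SE; adjusted p = 1.13e-08). dpy-14 had 7.402, 6.15 and 5.07 CPM at 34 °C, against 0.105, 0.0429 and 0.137 CPM at 20 °C (5.97, adjusted p = 1.28e-08). The groups of both genes were far apart. The other 14 reached at most 3.67 CPM on average at 34 °C, the level of col-152 (5.20). Abundant collagens varied between replicates more than between temperatures: summed over the list, collagens had 24188, 33212 and 14376 CPM at 34 °C and 20226, 19521 and 9969 CPM at 20 °C. With replicate numbers as a block 27 collagens were called higher and 2 lower, against 22.2% and 23.9% of all genes. Of 21 moulting and collagen processing genes none was called higher and 1 lower, the oxidase gene bli-3 (−0.51), and with replicate numbers as a block 1 was higher and 4 lower.

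Among 20 bZIP and early stress transcription factors 6 were called higher and 1 lower (median 0.28), against 16% and 18.2% of all genes. On library totals 3 and 2 were called, against 5.68% and 31.2%. zip-10, a bZIP factor, had 35.7, 32.5 and 38.0 CPM at 34 °C, against 3.85, 3.52 and 3.93 CPM at 20 °C (3.23 ± 0.21, SE; adjusted p = 6.31e-08). cebp-1, known for its part in axon regeneration, rose by 1.35 and egrh-1 fell (−1.01). The groups of zip-10 did not overlap. Of 60 oxidative and xenobiotic response genes 12 were called higher and 1 lower, against 16% and 18.2% of all genes, so the share of rises (20%) was near the background. prdx-3 (0.56) and sod-2 (0.49) of the mitochondria were among the rises. With replicate numbers as a block 20 were higher and 4 lower (background 22.2% and 23.9%), on library totals 3 and 3 (background 5.68% and 31.2%), and without replicate 3 at both temperatures 8 higher and none lower (background 12.5% and 15.8%). Of 54 innate immunity effectors 7 were called higher and 7 lower, 13% each way, which is below the shares of all genes (16% and 18.2%). With replicate numbers as a block 14 and 12 were called, near the shares of all genes under it (22.2% and 23.9%). The antimicrobial peptide genes cnc-4 (3.30) and nlp-33 (1.29) rose, and irg-3 (−2.03) and the lysozyme gene lys-2 (−0.9997) fell. cnc-4 varied from 11.6 to 34.3 CPM at 34 °C and from 1.58 to 2.52 CPM at 20 °C.

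Of 29 lipid metabolism genes measured, 8 were called higher (27.6%) and 6 lower (20.7%), against 16% and 18.2% of all genes. On library totals 5 were higher and 8 lower, against 5.68% and 31.2%. The stearoyl-CoA desaturase gene fat-6 had 1290, 1175 and 1390 CPM at 34 °C, against 518, 464 and 671 CPM at 20 °C (1.22 ± 0.22, SE; adjusted p = 0.000584). It is close in sequence to fat-7 (−0.05), so fragments could be shared. The lipase gene atgl-1 (1.25) and the desaturase genes fat-2 (0.76) and fat-1 (0.67) also rose. The elongase genes elo-5 (−1.17), elo-6 (−0.96), elo-2 (−0.72) and elo-1 (−0.46) fell. elo-5 had 162, 144 and 228 CPM at 34 °C, against 341, 399 and 459 CPM at 20 °C, with no overlap. In glycolysis and gluconeogenesis 11 of 22 genes were called higher and none lower (median 0.29), on library totals 3 and 1, and without replicate 3 at both temperatures 7 and none. pck-2 (0.49) and hxk-3 (0.45) rose, and gpd-1 (1.93), which has a near-identical copy in gpd-4, rose at 7.53 CPM in heat.

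Among the largest falls, 1 gene was at 0 in every heated library. tsp-7, a tetraspanin gene that shares its locus with 1 other gene (chromosome I, 9969606 to 9976307), had no fragment in any heated library, against 12.4, 14.9 and 21.3 CPM at 20 °C. Set to the same floor of 3 fragments, the heated group was at least 314-fold lower. It was also at 0 in the heated libraries of N2. K06A4.7 had 4.43, 3.03 and 6.16 CPM at 34 °C, against 63.7, 62.2 and 63.9 CPM at 20 °C (−3.82 ± 0.29, SE; adjusted p = 2.89e-07). asp-13, of the aspartic protease family, had 21.8, 22.5 and 28.03 CPM at 34 °C, against 319, 259 and 242 CPM at 20 °C (−3.51, adjusted p = 4.12e-08). Heated libraries of both lay below all unheated ones. The others of the 12 largest falls were T11G6.3 (−3.22), gtnt-51 (−3.09), lron-5 (−2.75), the folate transporter folt-1 (−2.69), gopc-1 (−2.42), the regulator of G-protein signalling rgs-4 (−2.42), M117.1 (−2.40), the peptide receptor dmsr-7 (−2.37) and clc-7 (−2.37).

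Neuronal transcripts were lower at 34 °C. Of 37 neuron markers 24 were called lower and 1 higher, with a median of −0.70, against 18.2% and 16% of all genes; on library totals 29 were lower and none higher, and without replicate 3 at 20 °C 21 were lower and none higher. rab-3, a small GTPase of synaptic vesicles, had 28.5, 28.6 and 35.1 CPM at 34 °C, against 73.3, 81.7 and 90.5 CPM at 20 °C (−1.42 ± 0.10, SE; adjusted p = 2.15e-07). pgal-1, which makes amidated neuropeptides, had 65.2, 60.1 and 72.1 CPM at 34 °C, against 196, 202 and 189 CPM at 20 °C (−1.57, adjusted p = 1.77e-08). The groups of both genes were far apart.

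The vesicular GABA transport partner unc-46 (−1.98), the neuronal rgef-1 (−1.85), the glutamate receptor glr-1 (−1.85), the choline transporter cho-1 (−1.55) and the glutamate transporter eat-4 (−1.51) also fell. Not all neuronal genes did so: unc-13 (−0.22), snb-1 (−0.14), unc-104 (−0.04) and unc-25 (0.03) did not pass the test, and mec-17 (0.50), an acetyltransferase for tubulin in touch neurons, rose, as did the touch neuron tubulin mec-7 (0.87). No neuron marker tested was at 0 in all libraries. Summed over the list, neuron markers had 1799, 1962 and 2014 CPM at 34 °C, against 2563, 2784 and 2509 CPM at 20 °C. In whole animals, fewer cells of a type and less RNA per cell cannot be told apart.

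Neuropeptide genes were mostly lower too. Of 148 listed, 22 did not pass the filter on low counts. Of the rest 66 were called lower and 9 higher (median −0.53), against 18.2% and 16% of all genes. On library totals 75 were lower and 4 higher, against 31.2% and 5.68%. Without replicate 3 at 20 °C 58 were lower and 8 higher, against 14.7% and 15%. nlp-43 had 5.66, 6.10 and 4.49 CPM at 34 °C, against 20.6, 26.4 and 19.8 CPM at 20 °C (−2.03 ± 0.16, SE; adjusted p = 3.27e-07). nlp-89 (−2.72), nlp-58 (−1.81), nlp-82 (−1.74) and ins-30 (−1.72) also fell. The 3 heated libraries of nlp-43 lay below all unheated ones. The rises included flp-1 (0.55) and ins-33 (0.75), and nlp-33, which is made in the epidermis and stands among the immunity genes. The summed level of the list, in which the few abundant members weigh most, was 2488, 2434 and 2736 CPM at 34 °C and 2746, 2807 and 2873 CPM at 20 °C.

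Muscle structural genes were higher on the TMM scale. Of 17 body wall muscle markers 9 were called higher and none lower (median 0.44), against 16% and 18.2% of all genes. On library totals 1 was higher and 1 lower (median 0.17), against 5.68% and 31.2%. Without replicate 3 at both temperatures 5 were higher and 1 lower, against 12.5% and 15.8%. The troponin gene tni-1 had 680, 643 and 737 CPM at 34 °C, against 430, 440 and 460 CPM at 20 °C (0.63, adjusted p = 0.000155). unc-22 (0.64), the twitchin gene, and unc-89 (0.69), the obscurin gene, rose, but unc-89 lost its call without replicate 3 at both temperatures (0.43). Heated libraries of tni-1 did not overlap with unheated ones, and the list summed to 16582, 14981 and 20380 CPM at 34 °C and 12920, 12180 and 13032 CPM at 20 °C.

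Other tissue markers were called in shares below those of all genes, of which 16% were called higher and 18.2% lower. Intestine markers were called lower in 2 of 18 cases and higher in none, with the peptide transporter pept-1 (−0.62) first, which lost its call without replicate 1 (−0.58) or replicate 2 (−0.48) at 34 °C. With replicate numbers as a block 3 intestine markers were higher and 4 lower, against 22.2% and 23.9% of all genes. Hypodermis and seam markers were called higher in 1 and lower in 3 of 17 cases, and this share of falls (17.6%) was near that of all genes. Pharynx markers were called higher in 1 and lower in 1 of 18 cases, and germline markers higher in 3 of 22 cases and lower in none.

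**Figure D4:**
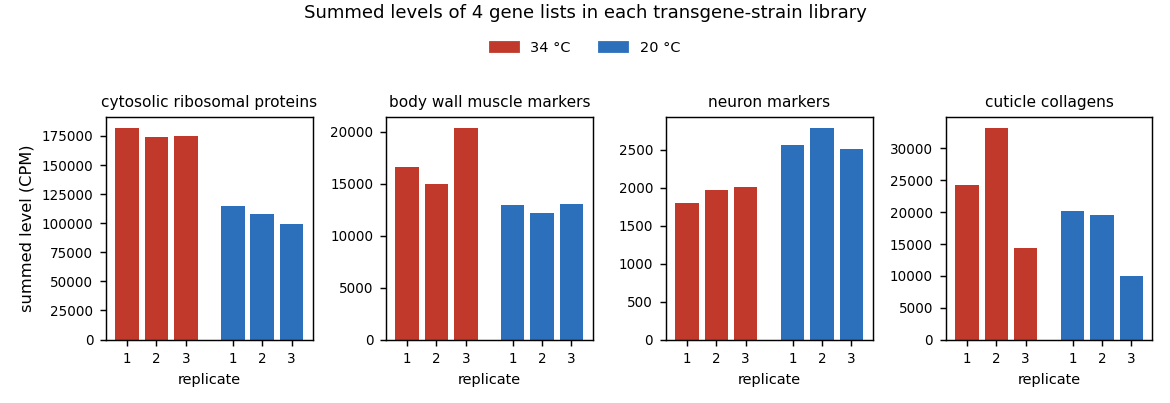
Summed level in CPM of cytosolic ribosomal proteins, body wall muscle markers, neuron markers and cuticle collagens in each transgene library, with 34 °C bars in red on the left and 20 °C bars in blue on the right. Ribosomal protein and muscle sums are higher in all 3 heated libraries and neuron sums lower, while collagen sums of replicate 3 (14376 CPM at 34 °C and 9969 CPM at 20 °C) lie below those of the other replicates.

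The strains without the transgene set this response beside that of the wild type and of the mutant. Each strain had its own unheated libraries. Of the 584 genes that rose at least 2-fold in the transgene strain, 578 had the same sign in N2 and 577 in hsf-1(sy441). Their median log2 fold change was 2.07 in the transgene strain, 1.99 in N2 and 1.49 in hsf-1(sy441). Of the 1053 genes that fell at least 2-fold, 1052 had the same sign in each of the other strains, with medians of −1.42 in the transgene strain, −1.32 in N2 and −1.198 in hsf-1(sy441). As the genes were chosen on the transgene strain, a smaller median elsewhere is in part built in. The share of all genes called in heat was 38.4% in N2 and 31.6% in hsf-1(sy441), against 34.1% in the transgene strain. Neuron markers were called lower in 25 of 37 cases in N2 (background 19.8%) and in 19 in hsf-1(sy441) (background 15.8%).

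The difference in response between the transgene strain and hsf-1(sy441), tested as an interaction, was called for 28 of 14219 genes (0.197%). For 26 the log2 fold change was larger in the transgene strain (0.183%) and for 2 it was smaller (0.0141%). With replicate numbers as a block 61 genes were called, 35 larger and 26 smaller, and 24 of the 26 were among them; DESeq2 called 69. In the 26 genes the median response was 2.61 in the transgene strain, 2.76 in N2 and 0.68 in hsf-1(sy441). As these genes were chosen on their difference from hsf-1(sy441), the gap between the transgene strain and that mutant is built in. Of these 26, 25 were called higher in the transgene strain by themselves and 20 in hsf-1(sy441).

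Of the 26 genes 7 were chaperone genes, and hsp-70 had the largest difference in response. It averaged 674 ± 65.6 CPM at 34 °C and 0.884 ± 0.344 CPM at 20 °C in the transgene strain, against 64.6 CPM at 34 °C and 2.13 CPM at 20 °C in hsf-1(sy441) (SD, n = 3). Its response was 9.56 in the transgene strain and 4.92 in the mutant, a difference of 4.64 ± 0.33 (SE; adjusted p = 2.69e-06). hsp-110 responded with 3.27 in the transgene strain and 0.63 in the mutant (difference 2.64 ± 0.11, adjusted p = 2.4e-09). dnj-13 responded with 1.91 in the transgene strain and −0.08 in the mutant (difference 1.99, adjusted p = 1.4e-05). hsp-4 (1.86), unc-23 (1.26), hsp-90 (0.84) and hsp-1 (0.77) were the other chaperone genes, each with a larger response in the transgene strain.

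The rest of the group was of mixed function, and the second largest difference was that of dct-10 (4.22), a gene of low level. It averaged 8.78 CPM at 34 °C and 0.185 CPM at 20 °C in the transgene strain. In hsf-1(sy441) dct-10 averaged 2.75 CPM at 34 °C and 1.12 CPM at 20 °C, so the strains differed in the unheated level too. scp-1 differed by 3.31 ± 0.11 (adjusted p = 2.27e-10), R11A5.3 by 3.08 ± 0.45 (adjusted p = 0.00571; 0.236 in limma-voom), R107.5 by 2.38 ± 0.20 (adjusted p = 1.79e-05) and nurf-1 by 1.54 ± 0.20 (adjusted p = 0.00133), all SE. aip-1 (1.90), known for induction by arsenite, and efk-1 (0.80), the kinase of elongation factor 2, were also members. srt-42 (2.87 ± 0.42, adjusted p = 0.00571) lies in the merged locus that holds hsp-16.41 with hsp-16.2, so its fragments are uncertain. fbxa-149 belonged to the 26 without a rise of its own: its response was 0.17 in the transgene strain and −1.69 in hsf-1(sy441).

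Several members were neighbours on the chromosome. Of 24 members with a position in the annotation 9 had another member directly beside them: R107.5 with ikke-1 and cls-2 on chromosome III, R11A5.3 with nud-2 on chromosome I, scp-1 with ttll-12 on chromosome II, and hsp-90 with C47E8.4 on chromosome V. ttll-12 had 703, 647 and 730 CPM at 34 °C, against 111, 111 and 102 CPM at 20 °C in the transgene strain (2.68), and ikke-1 rose by 2.03, cls-2 by 1.32 and nud-2 by 2.1. The strand setting of the authors' counting is not given in the sources used here, so reads that run on from a neighbour cannot be told apart from a gene's own. Among 534 genes with a position that rose at least 2-fold in the transgene strain, 23.03% had a neighbour that did so too. As that set is larger, its share is no background for the 9 of 24.

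Both smaller responses were weak calls. rgs-6 responded with −0.81 in the transgene strain and −0.10 in hsf-1(sy441) (difference −0.72, adjusted p = 0.0159), and lost its call in 7 of the fits that left out a single library (−0.62 to −0.72). Those were the fits without replicate 1 or 2 at 34 °C or replicate 1 at 20 °C of the transgene strain, and without replicate 3 at 34 °C or any one replicate at 20 °C of hsf-1(sy441). Y17G7B.21 responded with −0.52 in the transgene strain and 0.10 in the mutant (difference −0.62, adjusted p = 0.0073), and lost its call without replicate 3 at 20 °C of the transgene strain (−0.53, adjusted p = 0.0651) or without replicate 1 (−0.55) or replicate 3 (−0.54) at 20 °C of hsf-1(sy441).

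The small heat shock genes entered this group only when the unheated library with hsp-16 fragments was left out. With all libraries the difference from hsf-1(sy441) was 1.00 for hsp-16.2 and 0.19 for hsp-16.41, with an adjusted p of 1.00 for each. Without replicate 3 at 20 °C it was 4.699 for hsp-16.2 (adjusted p = 0.00451) and 5.99 for hsp-16.41 (adjusted p = 0.000118), and without replicate 3 at both temperatures 4.52 (adjusted p = 0.0136) and 5.82 (adjusted p = 0.000586). The 26 genes all kept their call without replicate 3 at 20 °C, and 33 genes were called in all.

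**Figure D5:**
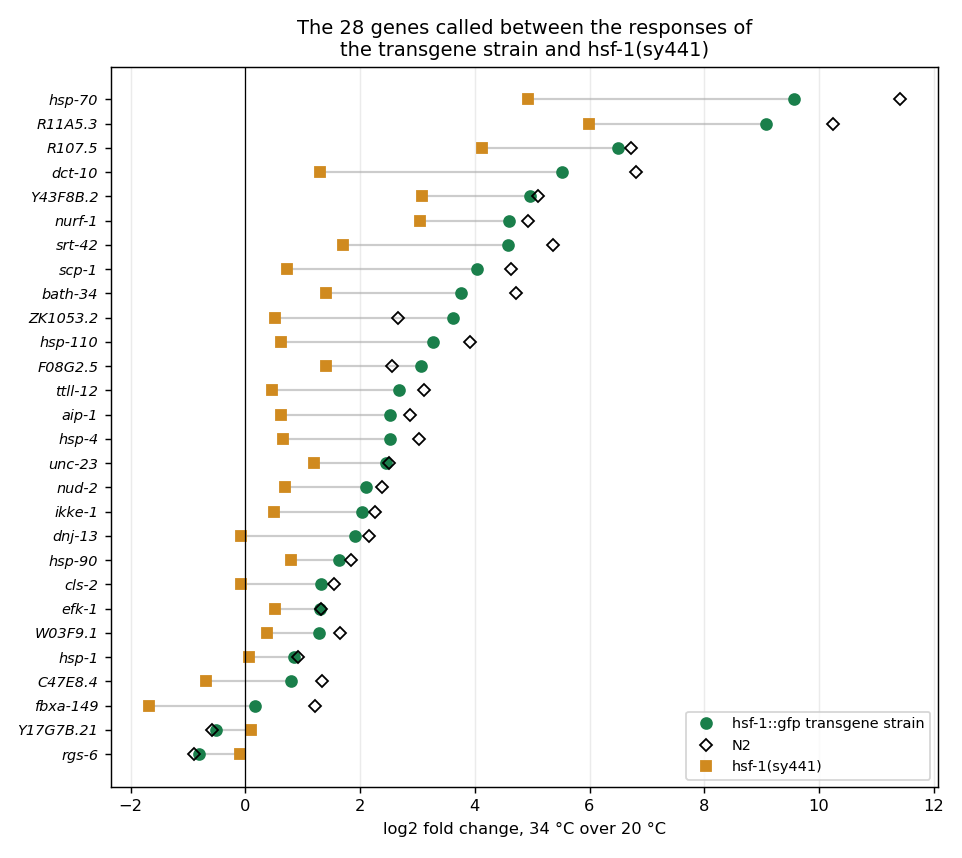
Log2 fold change of 34 °C over 20 °C in the 28 genes whose response differed between the transgene strain and hsf-1(sy441), one gene per line. Green circles are the transgene strain, open diamonds N2 and orange squares hsf-1(sy441). Circles lie close to diamonds and far from squares for most genes, as for hsp-110 (3.27 in the transgene strain, 3.91 in N2 and 0.63 in hsf-1(sy441)). The genes were chosen on the distance between circles and squares, so that distance is built in.

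Against N2 no gene's response was called different in edgeR, where the lowest adjusted p was 0.347 and 610 genes had an unadjusted p below 0.05 (4.29%). limma-voom called 0 genes and DESeq2 called 13, and without replicate 2 of N2 at 34 °C edgeR called 1. The 3 genes with the smallest p were hsp-110, scp-1 and sys-1. hsp-110 averaged 3747 CPM at 34 °C and 389 CPM at 20 °C in the transgene strain, against 5732 CPM at 34 °C and 381 CPM at 20 °C in N2, a difference in response of −0.64 ± 0.11 (SE; adjusted p = 0.347, and 1.6e-06 in DESeq2). scp-1 differed by −0.60 ± 0.11 (adjusted p = 0.368). sys-1, a beta-catenin gene, had 27.02, 31.2 and 28.2 CPM at 34 °C, against 10.3, 10.2 and 10.2 CPM at 20 °C in the transgene strain, a response of 1.497, against 0.95 in N2.

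hsp-70 responded with 9.56 in the transgene strain and 11.41 in N2, where it averaged 1170 CPM at 34 °C and 0.431 CPM at 20 °C, a difference of −1.85 ± 0.36 (SE; adjusted p = 0.536). hsp-16.2 differed from N2 by −3.94 with all libraries and by −0.31 without replicate 3 at 20 °C, and hsp-16.41 by −5.35 and 0.38, none of them called. Of the 26 genes with a larger response than in hsf-1(sy441), 24 had a smaller log2 fold change in the transgene strain than in N2, with a median difference of −0.34, beside −0.01 for all genes. The 2 others were ZK1053.2 and F08G2.5. A single difference of this size was below what the fit called, and absence of a call does not show that the responses were equal.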

How the data were processed

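TopHat2 and Cuffdiff were run on build ce10, per the submitters' processing notes, while versions, annotation and options are not given in the sources used here. The deposited read group table holds, per the file headers, unscaled expected counts (fragments for each gene in each library) and FPKM values that the authors scaled between libraries. Whole numbers made up 92.4% of the fragment values, and the rest were rounded. Group tables of the authors also hold log2 ratios with p-values and q-values, which were not used for any result here. The table counts replicates from 0, and they were taken in order as replicates 1 to 3 of the labels, so a library's group is certain and its number rests on that order. 2 further columns of per-sample values were not used. FPKM per fragment varied between genes in replicate 1 of every group, so FPKM is given only for levels per length.

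Of 20389 genes 19879 (97.5%) were matched to a name. The authors' tool gave no usable estimate in at least 1 library for 114 genes, 5 for too many fragments and 109 for failure, 83 of these in a transgene library. They held 6.23 to 7.58% of the fragments of a transgene library and were left out of the fit. filterByExpr left 14219 genes. edgeR 4.0.16 in R 4.3.3 fitted a quasi-likelihood model with TMM scaling and 1 mean per group over all 18 libraries, which share 1 estimate of the spread (biological coefficient of variation 25.3%). The response of the transgene strain and its differences from N2 and hsf-1(sy441) were tested, with Benjamini-Hochberg adjustment over all genes and calls at 0.05. No molecular identifiers are named in the labels, and floors cover counting error only.

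Alternatives were DESeq2 1.42.0, voom of limma 3.58.1, relative log expression (RLE) factors, library totals, no filter, the 6 transgene libraries alone, failed estimates kept, replicate blocks and leaving out each library. Leaving out replicate 3 at both temperatures and fitting the transgene libraries with failed estimates kept, with all 6 or without replicate 3 at 20 °C, were added after seeing the data. Same-numbered libraries of both temperatures deviated together from their group means (correlations of 0.487, 0.694 and 0.802 for numbers 1, 2 and 3). Replicates 1 and 2 also did so across numbers (0.236 and 0.390), and replicate 3 went against both (−0.474 to −0.736). Whether the numbers pair the libraries is thus not settled, and the labels state no shared batch. The reported test is unpaired, with the replicate block as its paired alternative. On simulated data for this comparison with 14037 genes, changes of 1.5-fold were recovered in 2.49% of genes, changes of 2-fold in 38.3% and changes of 4-fold in 100%, with 2 to 3 false calls. Every simulated gene had the same spread and few genes were changed, so recovery in the measured data may differ.

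The comparison and gene lists were chosen with earlier results of these data known. Named genes are hsf-1, unc-119, the inducible heat shock proteins, the 12 largest called rises and 12 largest called falls that reach 10 CPM without overlap of groups, up to 5 called members of each list with the largest changes at 5 CPM or more, and for each difference between strains up to 5 called genes per direction at 10 CPM or more, or else the 3 with the smallest p. For genes with a failed estimate, inducible heat shock proteins and those among the 12 largest changes are named. Other genes, among them members of lists given with a fold change alone, were chosen after their values were seen.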

Additional observations from a re-analysis of the deposited data

Results flagged for a closer look

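Differences between strains in the heat response were themselves tested. The response of the transgene strain differed from that of hsf-1(sy441) in 28 genes. The named ones with a larger log2 fold change in the transgene strain were hsp-70 (difference 4.64; responses 9.56 and 4.92), scp-1 (3.31; responses 4.04 and 0.73), R11A5.3 (3.08; responses 9.07 and 5.99), srt-42 (2.87; responses 4.58 and 1.71) and hsp-110 (2.64; responses 3.27 and 0.63), with the transgene strain's response given before that of hsf-1(sy441). Those with a smaller one were rgs-6 (−0.72; responses −0.81 and −0.10) and Y17G7B.21 (−0.62; responses −0.52 and 0.10). srt-42 shares a merged locus with hsp-16.2 and hsp-16.41. Groups of 3 libraries were too small to look for single outlying libraries by a rule.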

How the results depend on the processing

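Of 190 named results, each recomputed under its alternatives (3266 values), 114 kept direction and side of the threshold throughout; 291 values lost a call, 11 gained one and 4 turned round. All 4 did so on library totals: phb-1 (−0.000464), phb-2 (−0.10), nol-14 (−0.0591) and orc-2 (−0.0372). The count of 4854 calls in heat ranged from 3893 to 4822 without single transgene libraries and was 4925 with RLE, 5460 in DESeq2, 4872 in voom, 3421 with 6 libraries and 6551 with the replicate block; it was 2166 with 5 transgene libraries and failed estimates kept, a fit with fewer samples. On library totals it was 5247, of which 15.4% were higher, beside 46.8%. Differences from N2 numbered 0 as reported, 13 in DESeq2 and 0 to 1 without single libraries. Differences from hsf-1(sy441) numbered 28 as reported, 69 in DESeq2, 61 with the replicate block and 25 to 33 without single libraries. The causes of these shifts were not tested. The replicate block changed no call of a gene named in the report other than those given beside it there, except Y43F8B.2 and ZK1053.2 in the difference from hsf-1(sy441) (adjusted p 0.0575 and 0.0534) and myo-3, called higher at 34 °C with it. Changes under 2-fold were recovered poorly in simulations that gave every gene the same spread, so the recovery in these data may differ. A missing call at that size still does not show that a gene was unchanged.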

Other observations

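The genes with a failed estimate in some library, 114 in all, were kept in a fit on the 6 transgene libraries alone, with fragments as deposited. Not every one of them was tested, and 26 were called higher and 5 lower at 34 °C in edgeR. Of all 13384 genes tested in that fit, 1557 were called higher and 1895 lower. tent-5, a poly(A) polymerase gene, had 1222, 1518 and 1141 CPM at 34 °C, against 92.5, 120 and 136 CPM at 20 °C, a log2 fold change of 3.50 (adjusted p = 0.000528). Heated libraries lay above all unheated ones. C24A11.2, in the same merged locus, averaged 0.979 CPM at 34 °C and 0.0153 CPM at 20 °C. eef-1A.1, an elongation factor gene, averaged 12580 ± 904 CPM at 34 °C and 7586 ± 805 CPM at 20 °C (SD, n = 3), and unc-54, the main muscle myosin, averaged 6499 ± 1279 CPM at 34 °C and 4048 ± 487 CPM at 20 °C. The authors' tool marked eef-1A.1 for too many fragments in the heated hsf-1(sy441) libraries alone and passed it in all 6 transgene libraries. Values of the other genes named here rest on estimates that the tool marked as failed in at least 1 library.

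Replicate 3 was also apart in genes that were higher there at both temperatures, picked after their values were seen. col-39, in a merged locus of 6 genes, had 59.6, 23.03 and 601 CPM at 34 °C and 58.7, 46.4 and 200.1 CPM at 20 °C in replicates 1, 2 and 3. marg-1 had 18.9, 8.60 and 85.6 CPM at 34 °C and 21.2, 15.2 and 52.2 CPM at 20 °C. The moulting gene ptr-18 went the other way, with 255, 562 and 69.5 CPM at 34 °C and 180, 212 and 42.4 CPM at 20 °C. None of the 3 genes was called between temperatures.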
